A study of Mus musculus with 9 samples.

Results

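The genes described here are 9 components of the transforming growth factor beta (TGF-β) pathway in long-term hematopoietic stem cells (LT-HSCs): the ligand Tgfb1, the receptors Tgfbr1 and Tgfbr2, the coreceptor Eng, the signal carriers Smad2, Smad3 and Smad4, and the inhibitors Smad7 and Ski. They were chosen by name from the 47643 genes of the count table, by a rule that uses no measured value but was set with earlier results of these data known, and all 9 had enough counts to be tested. RNA was sequenced from LT-HSCs that differ in class IA PI3 kinase, the lipid kinases that relay signals from growth factor and cytokine receptors. TKO cells were Pik3cd-/- and carried Mx1-Cre with floxed Pik3ca (lox/lox) and floxed Pik3cb (lox/lox). δKO cells came from littermates with the same floxed and deleted alleles but no Mx1-Cre, so they lack p110δ alone. WT cells carried Mx1-Cre without the targeted alleles, so δKO was the genotype without Cre. Each genotype gave 3 libraries. Donor marrow on the C57BL/6 background was transplanted into lethally irradiated B6.SJL hosts, and all groups, controls included, received pIpC, which induces the interferon-responsive Mx1 promoter. Marrow of the recipients in a group was pooled and sorted for Lin-cKit+Sca1+Flk2-CD48-CD150+ cells. Mx1-Cre acts in all cells that respond to interferon, and the donor cells developed in WT hosts. How 3 libraries were drawn from pooled marrow is not given in the sources used here, so the p-values measure the spread between these libraries, which may be partly technical.

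TGF-β is secreted in a latent form and, once activated, is bound by the type II receptor TGFBR2, which phosphorylates the type I receptor TGFBR1. The type I receptor then phosphorylates SMAD2 and SMAD3, which enter the nucleus with SMAD4 and regulate transcription. SMAD7 blocks the activated receptor, SKI represses SMAD target genes, and endoglin (Eng) is a coreceptor for ligands of the TGF-β and BMP family. In bone marrow, TGF-β signaling is known for holding LT-HSCs in quiescence.

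Depth ranged from 31300343 to 60386097 counts per library, and a member had between 336 and 36632 counts in a library. Levels are given as CPM, counts relative to the library total and scaled with TMM factors. δKO replicate 1 and the δKO library whose column carries no replicate number of the labels (the unnumbered δKO library) stood apart with 18180 and 18500 genes detected, against 19703 to 22703 in the others. Of the targeted genes, Pik3cb was at 25.5 to 33.9 CPM in TKO, 33.2 to 101 CPM in δKO and 44.6 to 63.6 CPM in WT, with δKO replicate 2 inside the TKO range. Pik3cd was at 71.2 to 73.5 CPM in TKO, 38.5 to 91.2 CPM in δKO and 98.2 to 139 CPM in WT. Pik3ca overlapped between all genotypes. The methods state that excision, of a single exon in Pik3ca and in Pik3cb, was verified by PCR on marrow DNA. The counts here are of whole genes and do not measure the loss of an exon. All 9 listed HSC markers were detected in every library, and their summed level was 1598 to 1962 CPM in TKO, 1128 to 2495 CPM in δKO and 1187 to 1375 CPM in WT. The 10 neutrophil markers summed to 170 to 3413 CPM in TKO, 277 to 12803 CPM in δKO and 5555 to 12868 CPM in WT, so that all TKO libraries lay below all WT libraries. The part of these marker differences in the results that follow was not tested, and in bulk RNA a lower level per cell cannot be told apart from fewer cells of a type.

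The first question was whether deletion of the PI3K isoforms changed the level of the pathway's own components. No member passed the threshold of an adjusted p under 0.05 with more than a 2-fold change in any of the 3 comparisons. By edgeR's quasi-likelihood test, two-sided and adjusted over 18205 genes, 0 of 9 members were called in TKO against WT, where 0.00549% of all genes were called. In TKO against δKO 0 of 9 were called, against a background of 0%. In δKO against WT 0 of 9 were called, against a background of 0.00549%. DESeq2's Wald test also called 0 of 9 members in each comparison, with backgrounds of 0.657%, 2.91% and 1.08% in the same order. At an unadjusted p under 0.05 in edgeR there were 0, 1 and 0 members, where 4.19%, 10.2% and 7.01% of all genes reached that level. The 1 member was Eng in TKO against δKO. These are results at the size of this design, and the confidence intervals of the members, plotted for each comparison, reached past a 2-fold change in at least 1 comparison for every member other than Tgfb1 and Smad3.

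**Figure D1:**
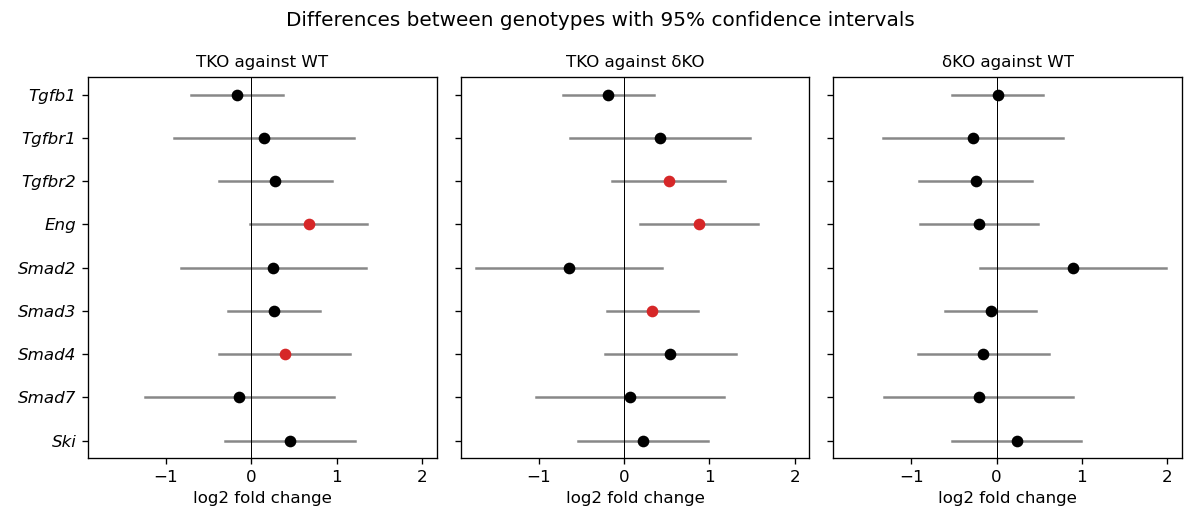
Log2 fold change (x axis) of the 9 members (y axis), with TKO against WT on the left, TKO against δKO in the middle and δKO against WT on the right, as points with lines for the 95% confidence intervals of the edgeR fit. Red points mark members whose libraries did not overlap between the 2 genotypes (Eng and Smad4 against WT; Eng, Tgfbr2 and Smad3 against δKO), and the interval of Eng in TKO against δKO, from 0.19 to 1.57, is the only one of the 27 that does not cross 0.

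In TKO against WT, 7 of 9 members had a positive and 2 a negative log2 fold change, with a median of 0.26, where 9317 of 18205 genes were positive and the median of all genes was 0.02. In TKO against δKO, 7 of 9 were positive and 2 negative, with a median of 0.33, where 8586 of all genes were positive and their median was -0.06. In δKO against WT, 3 of 9 were positive and 6 negative, with a median of -0.15, where 9614 of all genes were positive and their median was 0.05. The first 2 comparisons share the TKO libraries, and none of these medians was tested. Read library by library, Eng and Smad4 were higher in every TKO library than in every WT library, which makes 2 of 9 members with no overlap, both upward, where 14.4% of all genes did not overlap and 6.88% did so upward. Eng, Tgfbr2 and Smad3 were higher in every TKO library than in every δKO library, 3 of 9 members, where 11.7% of all genes did not overlap and 6.98% did so upward. Between δKO and WT the libraries of all 9 members overlapped, and 11.5% of all genes did not. Without WT replicate 1, 4 members did not overlap between TKO and WT, as Tgfb1 and Smad3 were then higher in TKO as well, and 21.6% of all genes did not overlap in that setting. Without δKO replicate 1, 4 members did not overlap between TKO and δKO, as Tgfb1 was then lower in every TKO library, and 24.6% of all genes did not overlap. Without δKO replicate 2 there were also 4, as Smad4 was then higher in every TKO library, where 28.3% of all genes did not overlap.

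Before the comparisons are taken gene by gene, the levels themselves show how much RNA of each component was measured. Levels were divided by the length of all annotated exons of a gene to compare genes. The order of genes depends on that length, and protein was not measured. Tgfb1 stood above the rest, with 95.8 CPM per kb ± 22.7 for WT, 96.8 ± 24.7 for δKO and 85.3 ± 1.43 for TKO (SD, n = 3), and its libraries did not overlap with those of the next gene in any genotype. Over the 9 libraries its mean lay at percentile 98.5 of 18139 genes. Smad7 came second in each genotype, with a mean of 29.0 CPM per kb in WT, and its range overlapped with that of the gene after it. Eng, Smad3, Ski and Smad4 followed in WT at 14.3, 13.8, 13.7 and 11.8 CPM per kb, and neighbors in that order overlapped. The signaling receptors were the least abundant members, with Tgfbr2 at 5.18 ± 1.37 and Tgfbr1 at 4.52 ± 1.13 CPM per kb in WT (SD, n = 3), near Smad2 at 5.96 ± 1.32. Tgfbr2 and Tgfbr1 also ranked lowest in δKO and TKO. They were at percentiles 61.6 and 57.3 of all genes, so even the lowest members were above the middle of the measured genes.

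**Figure D2:**
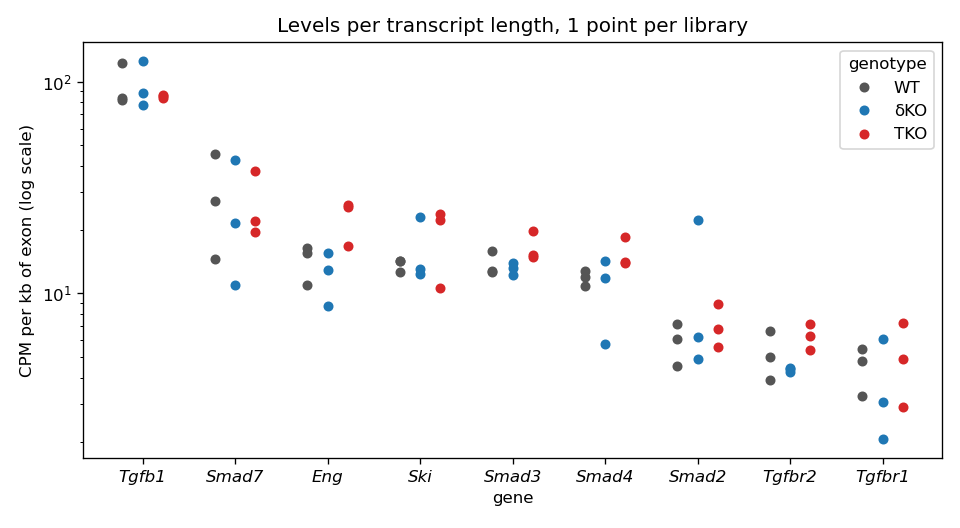
Level of each member in CPM per kb of exon (y axis, log scale), with 1 point per library and genotypes by color, ordered by the mean of the 9 libraries. Tgfb1 sits highest in all genotypes, Smad7 second with a wide spread, and Tgfbr2 and Tgfbr1 lowest.

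Tgfb1, the gene of the TGF-β1 ligand (chromosome 7, 25687002 to 25705077, plus strand, mm10), was at 615, 422 and 412 CPM in WT, 392, 444 and 629 CPM in δKO and 432, 423 and 437 CPM in TKO. The TKO libraries lay within a narrow band inside the range of both control genotypes. Its log2 fold change was -0.17 ± 0.24 (SE) against WT and -0.18 ± 0.24 against δKO, with 95% intervals of -0.70 to 0.37 and -0.72 to 0.35. A change of 2-fold in either direction lies outside both intervals.

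Tgfbr1, the type I receptor kinase (chromosome 4, 47353222 to 47414931, plus strand), was at 31.5, 21.4 and 35.7 CPM in WT, 13.4, 39.7 and 20.1 CPM in δKO and 19.0, 47.3 and 32.0 CPM in TKO. The δKO and TKO libraries each covered most of the range of the gene, and the genotypes overlapped. Its log2 fold change was 0.15 ± 0.48 (SE) in TKO against WT, with an interval of -0.91 to 1.20. Tgfbr2, the type II receptor that binds the ligand (chromosome 9, 116084293 to 116175360, minus strand), was at 32.0, 41.0 and 54.3 CPM in WT, 34.9, 36.3 and 36.1 CPM in δKO and 44.5, 58.6 and 51.6 CPM in TKO. All TKO libraries lay above the δKO libraries, which were almost equal to each other, and WT overlapped with both. The log2 fold change of Tgfbr2 was 0.53 ± 0.30 against δKO (edgeR adjusted p = 0.563) and 0.28 ± 0.30 against WT (adjusted p = 1), so neither difference passed the test. Against WT it was 0.11 without WT replicate 1, 0.18 without TKO replicate 2 and 0.50 without WT replicate 3. The ratio of Tgfbr2 to Tgfbr1 per exon length ranged from 0.811 to 1.53 in WT, from 0.728 to 2.08 in δKO and from 0.988 to 1.87 in TKO, without separation of the genotypes.

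Eng encodes endoglin, a coreceptor known from endothelial cells that is also carried by LT-HSCs (chromosome 2, 32646595 to 32682669, plus strand). It was at 44.5, 66.5 and 62.9 CPM in WT, 52.1, 63.0 and 35.5 CPM in δKO and 103, 67.7 and 106 CPM in TKO. Every TKO library was above every WT and δKO library, although TKO replicate 2 exceeded WT replicate 2 by little. The difference was largest of the 9 members against both controls, with a log2 fold change of 0.67 ± 0.31 (SE, interval -0.02 to 1.36) against WT and 0.88 ± 0.32 (0.19 to 1.57) against δKO. Neither was significant after adjustment over all genes, with an edgeR adjusted p of 1 against WT and 0.465 against δKO, and a DESeq2 adjusted p of 0.631 and 0.155. Over the 20 alternative settings and left-out libraries, the log2 fold change stayed between 0.51 and 0.85 against WT and between 0.58 and 1.07 against δKO, and the lowest adjusted p was 0.22 and 0.155. In δKO against WT the value was -0.21 ± 0.31, with -0.0098 without the unnumbered δKO library and -0.40 without δKO replicate 2.

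Marker sums and an overlapping gene were recorded beside Eng. The 6 endothelial markers summed to 5.43 to 12.7 CPM in TKO, 0.774 to 10.6 CPM in δKO and 1.51 to 3.96 CPM in WT, so TKO was also above WT in this list. Kdr and Stab2 were detected in every library and made up most of the sum. Kdr was at 3.42 to 4.39 CPM in TKO, 0.700 to 8.30 CPM in δKO and 0.924 to 2.67 CPM in WT, and Stab2 at 1.31 to 8.87, 0.0369 to 2.27 and 0.336 to 0.740 CPM, so both were higher in all TKO than in all WT libraries. The other 4 were low, with Lyve1 at 0 in 8 of 9 libraries, Cldn5 in 7, Cdh5 in 4 and Plvap in 2. The summed HSC markers were likewise higher in all TKO than in all WT libraries. In δKO replicate 1, where Eng was at 52.1 CPM, the endothelial sum was 10.6 CPM and the HSC sum 2495 CPM. The part of either sum in the level of Eng was not tested. Eng shares 61 exonic bases with Fpgs on the opposite strand, and the kit used does not mark strand. Fpgs itself was at 12.3 to 18.1 CPM in TKO, 3.83 to 16.4 CPM in δKO and 6.90 to 18.4 CPM in WT, and these ranges overlapped.

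Because Eng, Tgfbr2 and Smad3 were the members with every TKO library above every δKO library, the 250 bases before their transcription starts are shown here, read 5′ to 3′ along the gene's strand (RefSeq sequences, GRCm38.p6). Capitals mark the core of the SMAD-binding element, CAGAC or its reverse complement GTCTG. The windows are chr2:32646345-32646594 (plus strand) for Eng, chr9:116175364-116175613 (minus strand) for Tgfbr2 and chr9:63757995-63758244 (minus strand) for Smad3.
Eng: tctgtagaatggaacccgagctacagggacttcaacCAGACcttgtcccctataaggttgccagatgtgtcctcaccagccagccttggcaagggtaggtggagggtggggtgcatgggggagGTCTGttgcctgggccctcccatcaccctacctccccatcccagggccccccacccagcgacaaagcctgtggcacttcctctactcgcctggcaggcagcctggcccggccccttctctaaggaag
Tgfbr2: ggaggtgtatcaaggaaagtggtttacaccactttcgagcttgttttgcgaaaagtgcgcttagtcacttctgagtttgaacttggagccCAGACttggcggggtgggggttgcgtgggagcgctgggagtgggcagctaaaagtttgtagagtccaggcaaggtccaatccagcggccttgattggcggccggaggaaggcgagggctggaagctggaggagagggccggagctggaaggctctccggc
Smad3: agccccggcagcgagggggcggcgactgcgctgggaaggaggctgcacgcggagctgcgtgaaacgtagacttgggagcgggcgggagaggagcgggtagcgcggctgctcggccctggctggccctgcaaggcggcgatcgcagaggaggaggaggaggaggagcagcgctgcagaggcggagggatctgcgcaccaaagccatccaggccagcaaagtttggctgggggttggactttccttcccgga
The Eng window held 2 matches, whose first bases lie 214 and 127 bases before the start, the Tgfbr2 window held 1 at 160 bases, and the Smad3 window held 0. Of 32851 RefSeq promoter windows of the same length, 42.2% held this motif on either strand. Of GC-rich SMAD motifs, only GGCGC and its reverse complement GCGCC were searched. This form was in none of the 3 windows, so no matches of the searched motifs overlapped, and in 32% of all windows. The GC content was 62.4% for Eng, 58.4% for Tgfbr2 and 69.2% for Smad3. These are letter matches in a short window and say nothing of binding.

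Smad3, one of the SMADs phosphorylated by the type I receptor (chromosome 9, 63646767 to 63757994, minus strand), was at 88.0, 70.9 and 70.1 CPM in WT, 68.0, 72.9 and 77.2 CPM in δKO and 109, 83.8 and 81.9 CPM in TKO. TKO lay above δKO in every library and overlapped with WT through WT replicate 1. Its log2 fold change was 0.33 ± 0.25 (SE) against δKO (edgeR adjusted p = 0.656) and 0.26 ± 0.25 against WT (adjusted p = 1), and the intervals of -0.20 to 0.87 and -0.27 to 0.80 do not reach a doubling. Without TKO replicate 1 these fold changes were 0.19 and 0.12.

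The remaining SMAD genes lie on chromosome 18. Smad2, the other SMAD phosphorylated by the type I receptor (76241580 to 76310963, plus strand), was at 40.0, 63.1 and 53.7 CPM in WT, 194, 54.7 and 43.3 CPM in δKO and 49.1, 78.3 and 59.8 CPM in TKO. A single library, δKO replicate 1, was far above all others. With it, the log2 fold change was 0.90 ± 0.50 (SE) in δKO against WT and -0.64 ± 0.50 in TKO against δKO. Without δKO replicate 1 these values turned to -0.09 and 0.34. The ratio of Smad3 to Smad2 per exon length was 0.555 in δKO replicate 1 and 1.70 to 3.52 in the other 8 libraries, so that Smad3 was the more abundant of the pair elsewhere.

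Smad4, the partner shared by TGF-β and BMP signals (73639009 to 73703780, minus strand), was at 47.4, 40.1 and 44.2 CPM in WT, 44.0, 52.8 and 21.5 CPM in δKO and 68.6, 51.6 and 52.5 CPM in TKO. All TKO libraries exceeded all WT libraries, while δKO replicate 2 fell among the TKO values and the unnumbered δKO library was lowest. The log2 fold change was 0.39 ± 0.35 (SE) against WT (edgeR adjusted p = 1) and 0.55 ± 0.35 against δKO (adjusted p = 0.605), and neither passed the test. Without TKO replicate 1 the value against WT was 0.24, and the value against δKO was 0.25 without the unnumbered δKO library.

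**Figure D3:**
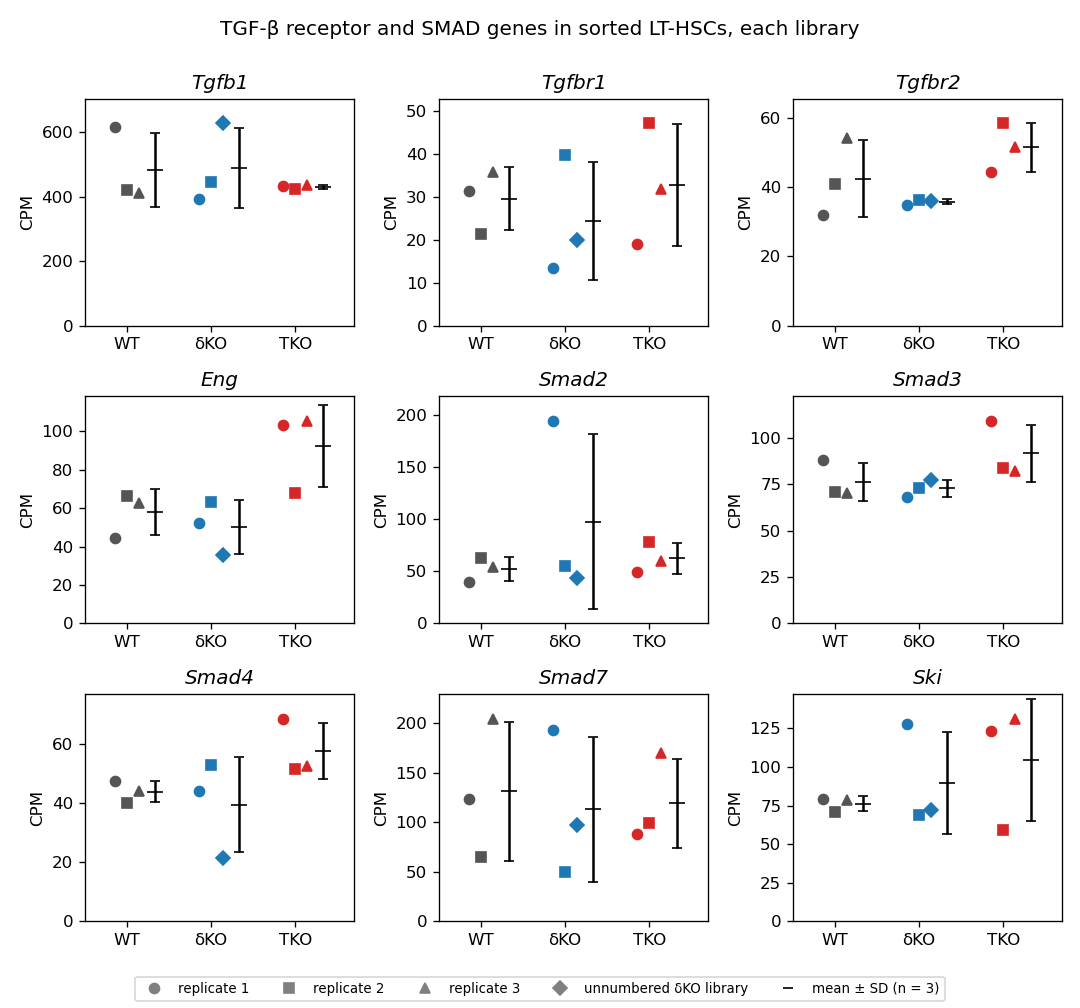
CPM (y axis, from 0) of the 9 members in each library of WT, δKO and TKO, with marker shapes for replicates and the mean ± SD (n = 3) in black. The TKO points of Eng lie above all control points, from 67.7 to 106 CPM, and the single high point of Smad2 at 194 CPM is δKO replicate 1.

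For both inhibitors the libraries overlapped between all genotypes. Smad7, which blocks the activated receptor and is itself induced by TGF-β (75367529 to 75395935, plus strand), was at 123, 65.4 and 205 CPM in WT, 193, 49.7 and 97.0 CPM in δKO and 87.9, 99.2 and 170 CPM in TKO. Its highest and lowest libraries differed 4.12-fold and the genotypes overlapped throughout. The log2 fold change was -0.14 ± 0.50 (SE) in TKO against WT and 0.07 ± 0.50 in TKO against δKO. It ended at 0.33 without WT replicate 3 in the first comparison and at -0.29 without δKO replicate 2 in the second, so its direction rested on single libraries.

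Ski, which represses genes bound by SMADs (chromosome 4, 155154075 to 155222592, minus strand), was at 79.2, 70.5 and 78.9 CPM in WT, 128, 69.1 and 72.2 CPM in δKO and 123, 58.8 and 131 CPM in TKO. The gene lies 5.5 Mb from Pik3cd, whose deleted allele TKO and δKO carry, and the part of this position was not tested. In TKO, replicates 1 and 3 were above every WT library and replicate 2 below, as the lowest of the 9 libraries. The log2 fold change was 0.46 ± 0.35 (SE) against WT and 0.22 ± 0.35 against δKO, and the edgeR adjusted p was 1 and 0.859. Leaving out 1 library gave 0.26 (without TKO replicate 3) to 0.74 (without TKO replicate 2) against WT and 0.022 (without TKO replicate 3) to 0.56 (without δKO replicate 1) against δKO.

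**Figure D4:**
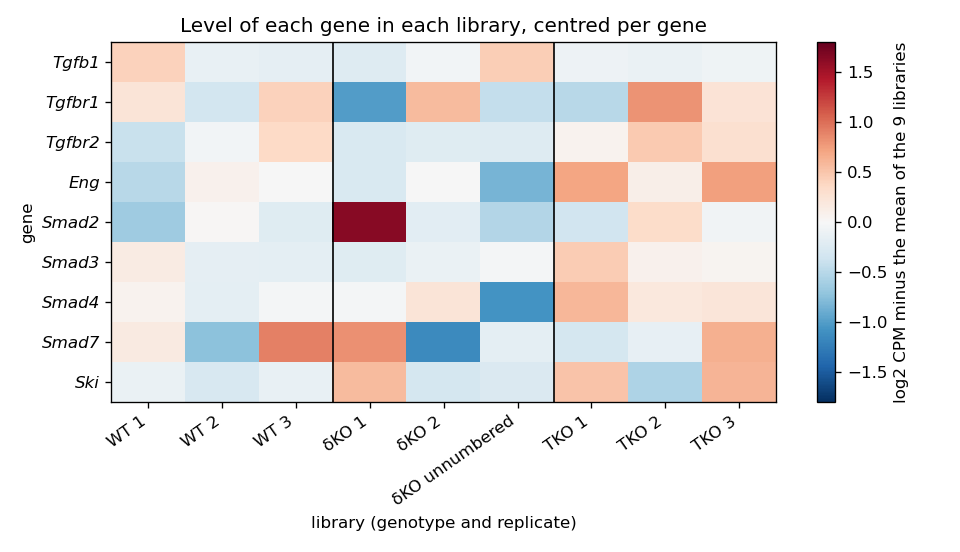
Level of each member (rows) in each library (columns), as log2 CPM minus the gene's mean over the 9 libraries, with lines between the genotypes. Red is above and blue below the mean, and the strongest color is Smad2 in δKO replicate 1, while the members show no common pattern over the libraries.

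No single order of the libraries was shared by the members. Pearson's r of log2 CPM between pairs of members over the 9 libraries, which share depth and preparation, ranged from -0.64 for Eng with Tgfb1 to 0.78 for Eng with Smad4. Among 10766 other genes whose mean reached 5 CPM, the one most like each member was named by the highest r. Smad7 was most like Nr4a1, an immediate early gene for a nuclear receptor (r = 0.951), which was at 155 to 751 CPM in WT, 110 to 511 CPM in δKO and 210 to 546 CPM in TKO. Smad2 was most like Ppp2r5c, a regulatory subunit of protein phosphatase 2A (r = 0.990), which in δKO replicate 1 stood at 189 CPM and elsewhere at 88.9 to 115 CPM. Eng was most like Grik5, a glutamate receptor subunit (r = 0.966), at 29.8 to 49.7 CPM in TKO, 12.1 to 25.1 CPM in δKO and 16.8 to 27.8 CPM in WT. The others were Golgb1 for Tgfb1 (0.976), Sertad3 for Tgfbr1 (0.961), 2810408A11Rik for Tgfbr2 (0.934), Josd1 for Smad3 (0.933), Ciz1 for Smad4 (0.967) and Phykpl for Ski (0.984). These are descriptions of 9 points and were picked as the highest of many.

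The wider pathway was examined with a list of 79 further genes by role, of which 64 had enough counts to be tested. edgeR called 0 of them in each comparison, and 2, 6 and 3 had an unadjusted p under 0.05, in the order TKO against WT, TKO against δKO, then δKO against WT. Of all genes, 4.19%, 10.2% and 7.01% had such a p, so the counts of the list were near or below the background. DESeq2 called 1, 2 and 2, where it called 0.657%, 2.91% and 1.08% of all genes. Over the 64 genes the median log2 fold change was 0.09, 0.14 and -0.07, beside 0.02, -0.06 and 0.05 for all genes. By role, and in the same order of comparisons, 5, 4 and 3 of the 7 tested ligands had a positive log2 fold change, as did 5, 5 and 3 of 9 genes of latency and activation. Among receptors and coreceptors 8, 6 and 4 of 8 were positive, with medians of 0.50, 0.54 and 0.07. Other SMADs were positive in 2, 2 and 1 of 3, and regulators of SMADs and receptors in 8, 7 and 10 of 16. Nuclear partners were positive in 3, 1 and 5 of 6, and genes of the SMAD-independent branch in 3, 4 and 0 of 4. Of the transcriptional targets 4, 8 and 4 of 11 were positive, with medians of -0.25, 0.21 and -0.42. These counts were not tested, and comparisons that share libraries are not independent. Cdkn2b, a cell cycle inhibitor often used as a TGF-β target, had 0 counts in all libraries.

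**Figure D5:**
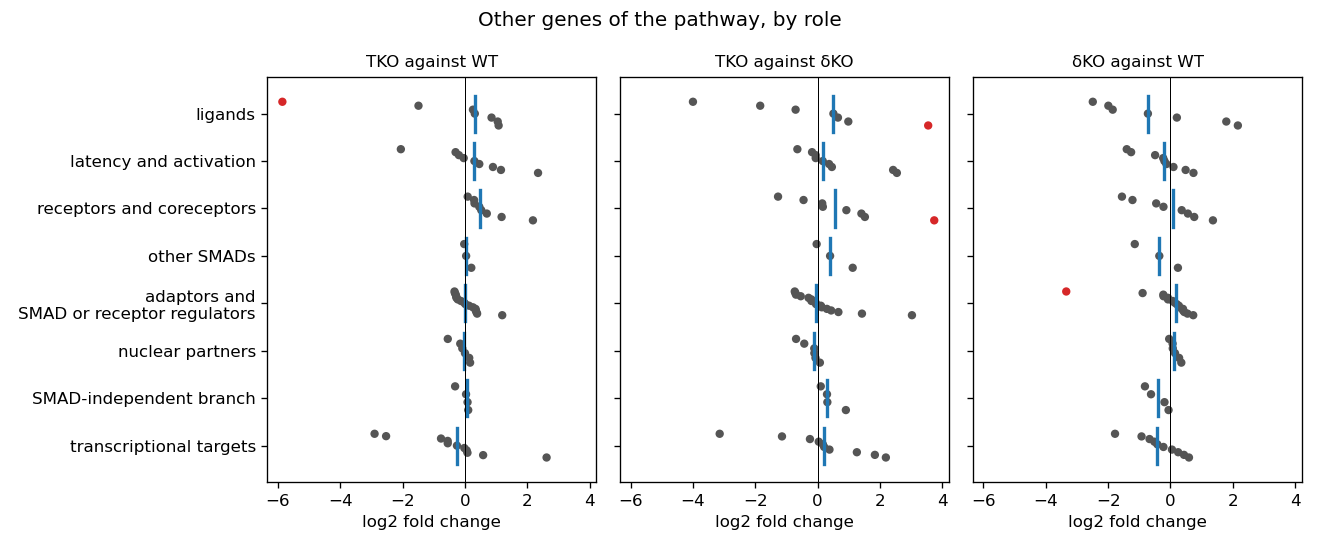
Log2 fold change (x axis) of the 64 tested pathway genes grouped by role (y axis) in the 3 comparisons of the edgeR fit, with 1 point per gene and a blue bar at the group's median. Col1a1 is not drawn in the comparisons with δKO, where it had 0 to 1 counts. The red points, called by DESeq2 and not by edgeR, are Inhba in TKO against WT, Bmp4 and Acvr2b in TKO against δKO, and Pmepa1 in δKO against WT.

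The genes of this list that DESeq2 called were at 9.91 CPM or less in every library, except Inhba in WT replicate 3. Among the ligands, Inhba, the subunit of activin A, was at 0.0672, 4.57 and 25.8 CPM in WT and at 0.0581 to 0.360 CPM in TKO (DESeq2 adjusted p = 0.0149, edgeR adjusted p = 1). WT replicate 1 lay within the TKO range. In δKO Inhba was at 0.623 to 5.94 CPM, above every TKO library, with a log2 fold change of -4.0 ± 1.65 (SE) in TKO against δKO that did not pass the test (DESeq2 adjusted p = 0.091, edgeR adjusted p = 0.465). Bmp4, a bone morphogenetic protein, was at 0.930 to 9.91 CPM in TKO and 0.0737 to 0.890 CPM in δKO, with a log2 fold change of 3.55 ± 1.32 (SE, DESeq2 adjusted p = 0.0368, edgeR adjusted p = 0.465). Its δKO counts were 4 in replicate 1, 50 in replicate 2 and 2 in the unnumbered library, with the lowest values in the pair of δKO libraries that had the fewest genes detected, and δKO replicate 2 was close to the lowest TKO library. WT libraries, at 1.13 to 3.34 CPM, overlapped with TKO. Gdf11, a ligand of activin receptors, was at 12.7 to 49.4 CPM in δKO, 13.4 to 24.6 CPM in TKO and 4.49 to 11.5 CPM in WT. The log2 fold change of Gdf11 in δKO against WT was 1.79 ± 0.58 (edgeR adjusted p = 0.699).

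Among the receptors, Acvr2b, a type II receptor for activins, was at 1.92 to 3.75 CPM in TKO, 0.0369 to 0.463 CPM in δKO and 0.0948 to 0.890 CPM in WT. Its TKO libraries lay above both controls, with a log2 fold change of 3.74 ± 1.41 (SE) against δKO (DESeq2 adjusted p = 0.0278, edgeR adjusted p = 0.465) and 2.18 ± 1.31 against WT (DESeq2 adjusted p = 0.571). Its δKO counts were 2, 26 and 1, again lowest in δKO replicate 1 and the unnumbered library, so the size of the fold against δKO is poorly determined. Pmepa1, a TGF-β-induced inhibitor of SMAD signaling, was at 0.120 to 0.516 CPM in δKO, 0.702 to 6.42 CPM in WT and 0.872 to 3.63 CPM in TKO (δKO against WT, DESeq2 adjusted p = 0.0483, edgeR adjusted p = 0.699). Its δKO counts were 3 in replicate 1, 29 in replicate 2 and 8 in the unnumbered library, again lowest where the fewest genes were detected. Usp4, which removes ubiquitin from TGFBR1, was well measured, at 70.4 to 79.7 CPM in TKO, 95.6 to 153 CPM in δKO and 81.4 to 99.8 CPM in WT. Every TKO library of Usp4 was below every control library, and the log2 fold change of -0.70 ± 0.25 against δKO did not pass the test (edgeR adjusted p = 0.465).

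Among nuclear partners and targets, Zeb2, a SMAD-interacting repressor, was at 187 to 227 CPM in TKO, 273 to 450 CPM in δKO and 218 to 349 CPM in WT, with a log2 fold change of -0.69 ± 0.27 (SE) against δKO (edgeR adjusted p = 0.465). Cdkn1c, the p57 cell cycle inhibitor linked to LT-HSC quiescence, was at 1.68 to 26.6 CPM in TKO, 0.806 to 3.22 CPM in WT and 0.558 to 3.94 CPM in δKO, and the genotypes overlapped. Col1a1, a collagen gene used as a TGF-β target in other cell types, had 0 to 1 counts in δKO, 19, 0 and 32 counts in TKO and 41 to 181 counts in WT, so both were lower than WT in every library. Its level in δKO was within the 3 counts that 0 allows, and no fold is given (δKO against WT, DESeq2 adjusted p = 0.0288, edgeR adjusted p = 0.699).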

How the data were processed

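According to the methods and labels, marrow of 7 recipients per group was pooled and sorted 4 weeks after pIpC (2 doses of 250 μg, 48 h apart), RNA was amplified with the Ovation RNA-Seq V2 kit, which does not mark strand, and each library had 2 technical runs. The authors used Trim Galore 0.3.7, FastQC 0.11.4, STAR 2.5.1b and mm10, as given in the submitters' processing notes, and deposited whole-number counts per gene. Per the methods, STAR also counted the reads per gene. Its strand setting and how runs were joined are not given in the sources used here. The deposited normalized signal was the raw count divided by 1 DESeq2 size factor per library in the 8 libraries whose raw and normalized columns match by name. It was used only in an alternative, with its δKO column numbered 3 as the third δKO library. The raw columns were matched to genotypes by name. One δKO column carries a number of no label, and that library was never paired.

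Counts were analyzed in R 4.3.3 with edgeR 4.0.16 (filterByExpr, count minimum 10, 18205 genes kept, TMM factors, quasi-likelihood test of all 9 libraries, fitted by genotype without a block), limma 3.58.1 and DESeq2 1.42.0, and figures with Python 3.11.15 and matplotlib 3.10.9. Calls required a Benjamini-Hochberg adjusted p under 0.05 over all kept genes and more than 2-fold change. Positions, names and exon lengths are from GENCODE M21 (mm10), in which 47224 of 47643 identifiers were found without their version. Its name Ccn2 was used for Ctgf.

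Members, lists and tests were chosen with earlier results of these data known. Genes named beside the members were, in each comparison, the 3 pathway genes with the smallest p, those called by edgeR or DESeq2, and the gene most correlated with each member. Marker lists for other cell types (macrophage, erythroid, T cell, B cell, stromal and platelet) were summed too, and over the 9 libraries they reached at most 85.9, 104, 8.17, 11.9, 21.7 and 292 CPM. Same-numbered libraries of different genotypes did not deviate together (correlations of -0.04 to 0.08), so the numbers were not taken as pairs.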

Additional observations from a re-analysis of the deposited data

How the results depend on the processing

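No alternative called any of the 9 members. Of 27 member fold changes, 11 kept their sign under all 20 alternatives, among them Eng, Tgfbr2, Smad3 and Smad4 in TKO against both controls, although leaving out 1 library moved those of Tgfbr2 against WT, Smad3 against both and Smad4 against both by over 1.5 times. Among the 64 tested pathway genes, edgeR called 0 in each comparison. DESeq2 called 1, 2 and 2 on all 9 libraries and 2, 2 and 1 on the groups compared (TKO against WT, TKO against δKO, δKO against WT). Of all genes, edgeR called 0.00549%, 0% and 0.00549%, and DESeq2 on all 9 libraries 0.657%, 2.91% and 1.08%, in the same order. The share for DESeq2 on the groups compared is not given here. The cause of the difference between the methods was not tested. With the replicate block, Eng in TKO against δKO was 0.60 (edgeR adjusted p = 0.75), and no call changed. Upper-quartile factors shifted the median of all genes by 0.14 in TKO against δKO and by -0.15 in δKO against WT.

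Other log2 fold changes reversed as follows. In TKO against WT, the replicate block gave -0.0052 for Tgfbr1 and 0.012 for Smad7, and voom gave -0.038 and 0.081. In TKO against δKO, the block gave 0.086 for Tgfb1, -0.14 for Smad7 and -0.037 for Ski, and voom -0.058 for Tgfbr1. In δKO against WT, Tgfb1 was -0.13 with upper-quartile factors, -0.24 with the block, -0.067 with at least 10 counts in every library and -0.097 with genes detected as a covariate. That covariate gave 0.0014 for Tgfbr1, 0.11 for Smad4 and 0.23 for Eng, the block 0.12 for Smad4, 0.15 for Smad7 and 0.075 for Eng, and voom 0.020 for Tgfbr1.

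Leaving out 1 library at a time gave, in TKO against WT, -0.27 to 0.043 for Tgfb1, -0.22 to 0.42 for Tgfbr1 and -0.48 to 0.33 for Smad7. In TKO against δKO it gave -0.32 to 0.040 for Tgfb1, -0.996 to 0.34 for Smad2 and -0.29 to 0.70 for Smad7. In δKO against WT it gave -0.21 to 0.23 for Tgfb1, -0.81 to 0.018 for Tgfbr1, -0.092 to 1.25 for Smad2, -0.13 to 0.045 for Smad3, -0.42 to 0.14 for Smad4, -0.84 to 0.26 for Smad7 and -0.11 to 0.40 for Ski. The number of members without overlap was an alternative added after the data were seen. It was 2 to 4 in TKO against WT and 3 to 4 in TKO against δKO. Over the same settings, 14.4% to 30.2% of all genes did not overlap in TKO against WT and 11.7% to 28.3% in TKO against δKO. Where 1 genotype is left with 2 libraries, the spread is that of all groups.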
